A study of Mus musculus with 4 samples.

Results

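The 41 genes described here encode proteins that act in G2 and mitosis, the last stages of the cell cycle. They were taken by name from a fixed list that runs from the kinase that starts mitosis to the proteins that part the daughter cells. All 41 were found among the 46078 genes of the count table, and all 41 passed the filter of at least 1 count per 1000000 counts (CPM) in at least 1 library, which left 12348 tested genes. RNA had been sequenced from MLE-12 cells, a mouse alveolar epithelial line that came from a lung tumour of a mouse carrying the SV40 large T antigen under the surfactant protein C promoter. The 4 conditions were Lingo1 knockout cells 24 hours after a scratch wound, Lingo1 knockout cells without a scratch, wild-type (WT) cells 24 hours after a scratch wound, and WT cells without a scratch. Each condition had 1 library, so no difference between a pair of conditions has a replicate check. LINGO1 is a leucine-rich repeat transmembrane protein best known from neurons, as a partner of the Nogo receptor. The labels do not state how the knockout was made or whether the cells were 1 clone.

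Dividing cells make most of these messenger RNAs in waves. Transcription of G2 and mitosis genes is held low in G1 by the DREAM complex and switched on in late S phase and G2 by B-MYB with the MuvB core and by FOXM1, acting largely through a promoter element called the CHR and through CCAAT boxes bound by NF-Y. Cyclin B with CDK1 then drives entry into mitosis, the checkpoint holds the cell until every kinetochore is attached, and the anaphase-promoting complex (APC/C) ends mitosis by having cyclin B and securin destroyed. In an epithelial layer, cells at a wound edge first migrate and then divide, so these genes are a usual readout of how many cells are dividing. In RNA from a whole culture, a larger share of cells in G2 or mitosis and more RNA per such cell cannot be told apart.

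Total counts were 48333801 and 29533746 in the scratched and unscratched knockout-labelled libraries, against 27907279 and 26903429 in the scratched and unscratched WT libraries. Lingo1 itself stood at 41.4 and 41.2 CPM in the scratched and unscratched knockout-labelled libraries, against 42.9 and 46.4 CPM in the scratched and unscratched WT libraries. Lingo1 in knockout-labelled cells was thus 0.966 times WT after a scratch (95% counting interval 0.899 to 1.04) and 0.889 times WT in unscratched cells (0.821 to 0.963). The knockout was therefore not visible in the level of its own mRNA, which does not show whether the protein was lost, and the libraries are called knockout-labelled throughout. Of 8 alveolar type 2 markers, 4 reached 1 CPM in every library, Sftpa1 and Sftpd were at 0, and the summed markers ranged from 421 to 449.5 CPM in the knockout-labelled libraries and from 323 to 370.0 CPM in the WT libraries. Abca3 and Nkx2-1 made up most of that sum, and the surfactant genes Sftpb and Sftpc rose with genotype (edgeR adjusted p = 2.08e-20 and 1.13e-12). Sftpb was 4.19 times WT without a scratch and 4.09 times after one, and Sftpc 3.62 and 3.09 times. Of 6 general epithelial markers 4 reached 1 CPM in every library, Cldn4 was at 0, and the sums were 1133 and 1068 CPM in the scratched and unscratched knockout-labelled libraries, against 1140.4 and 1059 CPM in the scratched and unscratched WT libraries. Of the 4 epithelial markers tested, 2 rose with genotype in edgeR and 0 fell. Their median difference was 0.08 log2 without a scratch and 0.17 after one. Of 7 fibroblast markers 4 reached 1 CPM in every library, with sums of 3595 and 3854 CPM in the knockout-labelled libraries, against 3549.6 and 3587 CPM in the WT libraries. Dcn made up most of these sums, and the other 3 tested fibroblast markers rose with genotype (edgeR adjusted p = 2.72e-23 for Col1a1, 0.0188 for Pdgfra and 2.72e-05 for Vim). Col1a1 was 9.26 times WT without a scratch and 10.7 times after one, Pdgfra 1.78 and 1.69 times, and Vim 1.31 times in either comparison. Leukocyte markers summed to at most 2.11 CPM, 1 of 6 (Cd68) reached 1 CPM in every library, and Ptprc and Adgre1 were at 0. Endothelial markers summed to 179 and 213 CPM in the scratched and unscratched knockout-labelled libraries, against 208 and 219 CPM in the scratched and unscratched WT libraries, with 1 of 5 (Tek) at 1 CPM or more in every library and Cdh5 at 0. The part of these marker differences in the results below was not tested.

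All 41 genes were well expressed in every library. Their RPKM (read density per length of gene and per library size, the authors' values, which can be compared between genes) had a median of 48.0 and 49.3 in the scratched and unscratched knockout-labelled libraries, against 41.8 and 37.7 in the scratched and unscratched WT libraries. The same median over all genes of that table lay between 7.15 and 7.18 RPKM in the 4 libraries. Top2a, the topoisomerase that untangles chromosomes before they separate, was the highest member at 293 and 302 RPKM in the scratched and unscratched knockout-labelled libraries, against 284 and 263 RPKM in the scratched and unscratched WT libraries. Cdc25c, a phosphatase that activates CDK1, had the lowest mean over the 4 libraries, with 15.6 and 16.4 RPKM in scratched and unscratched knockout-labelled cells, against 12.7 and 12.6 RPKM in scratched and unscratched WT cells. In the unscratched knockout-labelled library Gtse1 was lower, at 16.0 RPKM. The lowest member count in any library was 894. Together the 41 genes held 0.858% (95% Clopper-Pearson interval 0.856 to 0.861) and 0.883% (0.880 to 0.886) of the counts of the scratched and unscratched knockout-labelled libraries, against 0.811% (0.808 to 0.815) and 0.761% (0.758 to 0.765) in the scratched and unscratched WT libraries. These intervals, like all those below, cover counting error only.

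**Figure D1:**
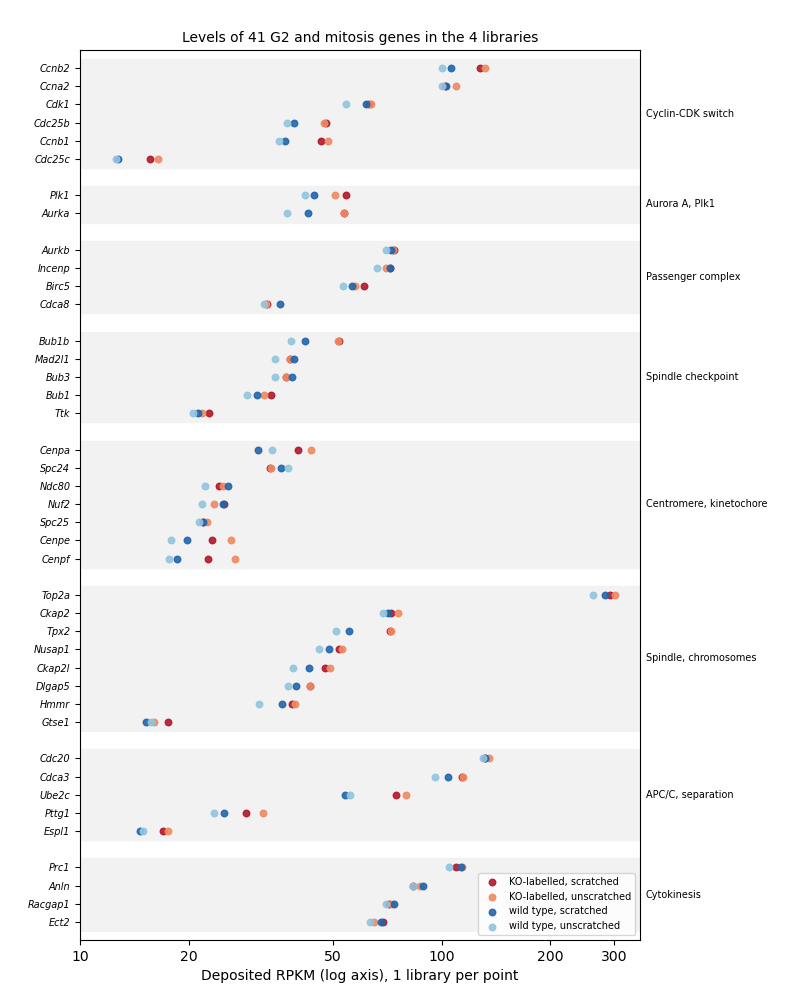
Deposited RPKM (log axis) of the 41 genes, with 1 point per library and the genes grouped by role. Top2a lies highest, between 263 and 302 RPKM, and Cdc25c has the lowest mean, with values between 12.6 and 16.4 RPKM. For most genes the 4 points lie close together. For Ube2c, Tpx2, Ccnb2 and Cenpa, as examples, both knockout-labelled points lie above both WT points. By CPM this order was found for 28 of the 41 genes.

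G2 and mitosis mRNAs were higher in knockout-labelled than in WT cells, by small factors, and the median difference was larger in unscratched cells. Without a scratch, 40 of the 41 genes were above WT, beside 6358 of the 12348 tested genes. The median log2 difference was 0.20, against 0.01 over all tested genes. After a scratch, 31 of the 41 were above WT, beside 6233 of the 12348 tested genes. The median was then 0.10, against 0.00 over all tested genes. The summed CPM of the 41 genes was 1.166 times the WT level (95% counting interval 1.159 to 1.173) without a scratch and 1.067 times (1.061 to 1.072) after a scratch. No member differed by 2-fold, beside 1.44% of tested genes higher and 0.964% lower without a scratch, and 1.57% higher and 0.478% lower after one. The widest difference was that of Cenpf at 1.54 (1.49 to 1.59) times WT without a scratch.

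A call in a pair of libraries needed a level at least 25% higher, or at least 20% lower, and a 95% counting interval of the ratio that excludes 1. Without a scratch, 14 of the 41 genes were called higher in knockout-labelled cells and 0 lower, beside 8.93% of tested genes higher and 7.56% lower. After a scratch, 6 were called higher and 0 lower, beside 7.28% and 5.47% of tested genes. Those 6 genes, Ube2c, Tpx2, Aurka, Ccnb1, Bub1b and Cenpa, were called in both comparisons, as were 4.58% of tested genes, and 0 were called lower in both (2.80% of tested genes). Both knockout-labelled libraries lay above both WT libraries for 28 of the 41 genes, beside 28.6% of tested genes, and below them for 1, beside 27.6%. The counting interval lay above 1 for 36 genes and below 1 for 1 without a scratch (26.8% and 24.1% of tested genes), and above 1 for 24 and below 1 for 5 after a scratch (24.0% and 23.6%). Counting intervals narrow with depth, and the members' median RPKM lay well above that of all genes. Shares of tested genes, here and below, are not matched for level. The pair of genotype comparisons shares no library, and across the 41 genes their log2 differences correlated with a Pearson r of 0.83 and a Spearman rho of 0.81, against 0.63 and 0.62 across all 12348 tested genes. Genes of 1 pathway are not independent of each other, and these coefficients are given as a description.

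A fit of all 4 libraries, with a term for genotype and a term for the scratch, asked which genes differed by genotype by more than the libraries varied around that model. By edgeR's quasi-likelihood test with Benjamini-Hochberg adjustment over all tested genes, 19 of the 41 genes rose in knockout-labelled cells at a false discovery rate of 0.05, 0 fell and 22 did not pass, beside 13.8% of tested genes that rose and 12.2% that fell. Only in this fit are "rose" and "fell" used below. It has 1 residual degree of freedom and treats cells of 1 genotype with and without a scratch as the only repeats, so its p-values compare these libraries. The spread used for a gene is mostly borrowed from all tested genes (25.4 prior degrees of freedom), so SE values are alike between genes. For Cenpe the SE is 0.07, though its genotype differences were 0.57 log2 without a scratch and 0.24 after one. With DESeq2 in the same design, 10 of those 19 passed (Ccnb1, Ccnb2, Cdc25b, Aurka, Plk1, Bub1b, Cenpa, Tpx2, Ckap2l and Ube2c), beside 4.54% of tested genes.

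**Figure D2:**
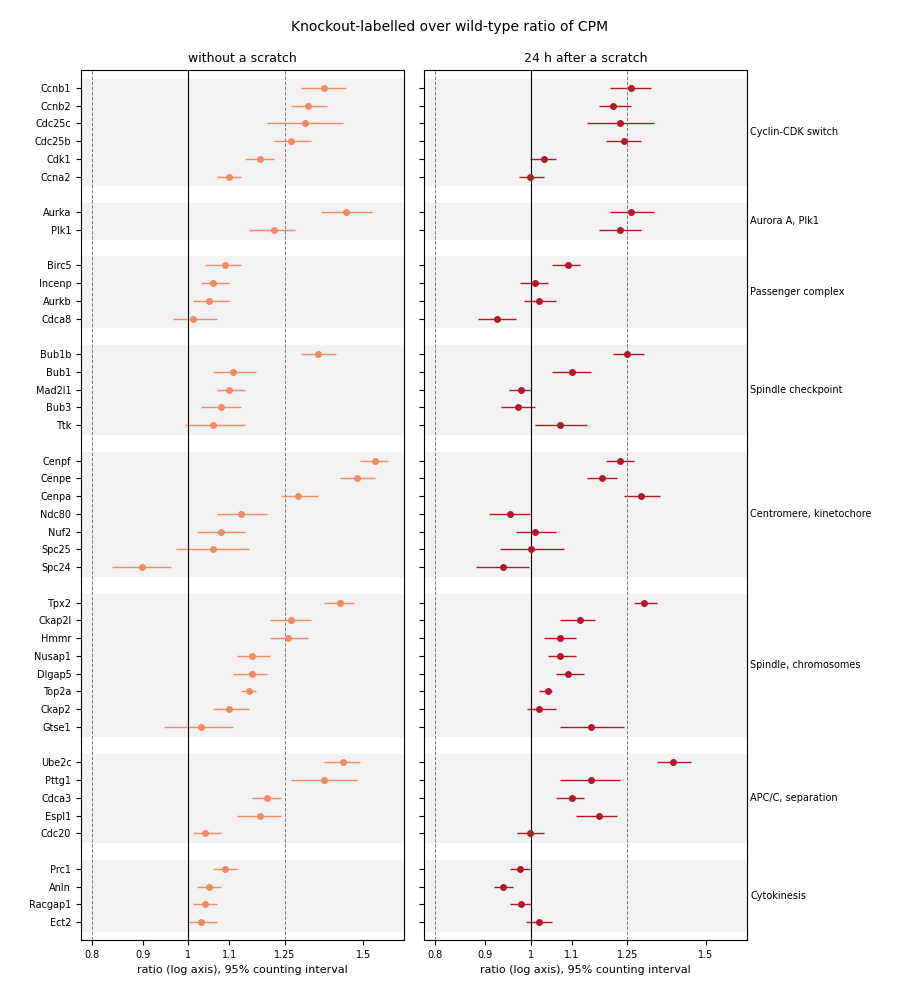
Ratio of CPM, knockout-labelled over WT (log axis), for the 41 genes without a scratch (left) and 24 hours after a scratch (right); points are ratios of 1 library each, bars are 95% counting intervals, and dashed lines mark 25% higher and 20% lower. Without a scratch 36 of the 41 intervals lie above 1 and 1, that of Spc24, below; after a scratch 24 lie above and 5 below.

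Promoter sequence from RefSeq (GRCm38.p6; 250 bases before to 50 bases after the gene start) was matched for 34 of the 41 genes. A gene with more than 1 window was counted once, by the window with most matches. The CHR letters TTTGAA, searched on both strands, were found in 24 of these 34 genes (70.6%). They were found in 20.2% of all 27025 genes with a window and in 14.1% of the 9589 tested genes with one. At least 1 CCAAT, also on either strand, was in 27 (79.4%), against 41.1% and 43.6%, and at least 2 were in 19 (55.9%), against 13.3% and 17.1%. The related letters TTCGAA were in 4 genes (11.8%), against 1.80% and 2.45%. Neither CHR spelling can overlap the other, and CCAAT can share its end bases with either or with a CCAAT of the other strand. The 6 stretches below, each 120 bases long, come from a kinase, a cyclin, both APC/C partners, a kinetochore protein and the topoisomerase. They were picked for holding TTTGAA and cut around a copy of it, so its presence in them is no result. Their layout varies, with 1 CCAAT shown in Cenpf, 3 in Ccnb2 and in Top2a, and 1 after the TTTGAA in Cdc20. Capitals mark the CHR letters and the CCAAT box in either orientation, and each sequence is read 5′ to 3′ along the strand of its gene.
Cdk1 (chr10:69352902-69353021, minus strand): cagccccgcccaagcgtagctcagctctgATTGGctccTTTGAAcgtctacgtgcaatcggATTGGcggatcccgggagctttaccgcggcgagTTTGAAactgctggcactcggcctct
Ccnb2 (chr9:70421525-70421644, minus strand): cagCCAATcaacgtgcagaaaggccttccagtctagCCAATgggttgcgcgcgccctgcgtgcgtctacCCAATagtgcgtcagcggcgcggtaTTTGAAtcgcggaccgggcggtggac
Cdc20 (chr4:118437336-118437455, minus strand): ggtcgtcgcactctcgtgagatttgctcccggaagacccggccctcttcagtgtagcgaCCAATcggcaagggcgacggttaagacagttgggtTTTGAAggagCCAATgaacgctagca
Ube2c (chr2:164769806-164769925, plus strand): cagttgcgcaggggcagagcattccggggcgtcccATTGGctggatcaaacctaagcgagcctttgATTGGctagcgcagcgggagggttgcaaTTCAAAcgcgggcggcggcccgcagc
Cenpf (chr1:189688059-189688178, minus strand): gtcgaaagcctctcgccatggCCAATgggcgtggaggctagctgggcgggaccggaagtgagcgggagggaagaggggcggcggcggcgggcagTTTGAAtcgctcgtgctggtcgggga
Top2a (chr11:99024187-99024306, minus strand): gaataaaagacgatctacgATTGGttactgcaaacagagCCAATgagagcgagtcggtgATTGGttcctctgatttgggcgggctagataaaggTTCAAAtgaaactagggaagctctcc
Counting the first transcribed base as 1, the TTTGAA nearest the start begins at base -15 in Cdk1, 5 in Ccnb2, -18 in Cdc20, -29 in Ube2c, 3 in Cenpf and -23 in Top2a. With genotype, 11 of 24 members with TTTGAA rose, as did 5 of 10 without it. Median genotype differences were 0.13 and 0.15 log2 in those sets. Of 19 members with at least 2 CCAAT boxes 9 rose, as did 7 of the other 15. Such matches are letters in a window and do not show that a factor binds.

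The kinase switch that starts mitosis was among the groups with the widest genotype difference: 4 of its 6 genes rose, with a group median of 0.37 log2 without a scratch and 0.29 after a scratch. Ccnb1, which encodes the main mitotic cyclin, stood at 46.3 and 48.5 RPKM in the scratched and unscratched knockout-labelled libraries, against 36.9 and 35.5 RPKM in the scratched and unscratched WT libraries. Ccnb1 was 1.37 (1.30 to 1.44) times WT without a scratch and 1.26 (1.20 to 1.32) times after a scratch, and rose by 0.39 ± 0.06 log2 (SE; edgeR adjusted p = 9.93e-06). Both knockout-labelled values of Ccnb1 lay above both WT values.
Ccnb2, a second B-type cyclin found at the Golgi, had 128 and 132 RPKM in scratched and unscratched knockout-labelled cells, against 106 and 100.4 RPKM in scratched and unscratched WT cells, and rose by 0.34 ± 0.06 log2 (adjusted p = 9.17e-05). Cdc25b and Cdc25c, which encode phosphatases that strip inhibitory phosphates from CDK1, rose as well. The related Cdc25a, read from another list, did not pass (0.05 ± 0.07 log2, adjusted p = 0.662). Cdc25b had 48.0 and 47.4 RPKM in scratched and unscratched knockout-labelled cells, against 39.0 and 37.3 RPKM in scratched and unscratched WT cells, and rose by 0.33 ± 0.06 log2 (adjusted p = 1.20e-04). Cdc25c rose by 0.34 ± 0.07 log2 (adjusted p = 3.37e-04). The kinase itself did not pass. Cdk1 had 63.1 and 64.0 RPKM in the scratched and unscratched knockout-labelled libraries, against 61.7 and 54.3 RPKM in the scratched and unscratched WT libraries, so the scratched WT library lay close to the knockout-labelled libraries. Its genotype difference was 0.14 ± 0.06 log2 (adjusted p = 0.0906). Ccna2, cyclin A, which serves S phase and early mitosis, had the smallest difference of the group at 0.07 ± 0.06 log2 (adjusted p = 0.428). Ccna2 had 102 and 109.9 RPKM in scratched and unscratched knockout-labelled cells, against 103 and 100.2 RPKM in scratched and unscratched WT cells, and after a scratch its ratio was 0.999 (0.972 to 1.03).

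Both kinases that build the spindle poles rose, and their median was 0.40 log2 without a scratch and 0.32 after one. Aurka encodes Aurora A, which matures centrosomes, and stood at 53.6 and 53.6 RPKM in the scratched and unscratched knockout-labelled libraries, against 42.6 and 37.3 RPKM in the scratched and unscratched WT libraries. It was 1.44 (1.36 to 1.53) times WT without a scratch and 1.26 (1.20 to 1.33) times after, and rose by 0.43 ± 0.06 log2 (adjusted p = 1.85e-06). Plk1, Polo-like kinase, had 54.4 and 50.7 RPKM in scratched and unscratched knockout-labelled cells, against 44.4 and 41.8 RPKM in scratched and unscratched WT cells, and rose by 0.29 ± 0.06 log2 (adjusted p = 3.42e-04). Its ratio was nearly the same without a scratch, 1.22 (1.15 to 1.28), and after one, 1.23 (1.17 to 1.29).

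The chromosomal passenger complex, which corrects faulty kinetochore attachments, had 0 of 4 genes that passed, and its group median was 0.08 log2 without a scratch and 0.02 after one. Birc5, survivin, had the largest difference, 0.12 ± 0.06 log2 (adjusted p = 0.136), with 61.1 and 57.8 RPKM in scratched and unscratched knockout-labelled cells, against 56.5 and 53.4 RPKM in scratched and unscratched WT cells. Aurkb, the Aurora B kinase of the complex, had 73.9 and 73.4 RPKM in scratched and unscratched knockout-labelled cells, against 72.5 and 70.0 RPKM in scratched and unscratched WT cells, a span of a few RPKM over all 4 libraries. Its scaffold Incenp had 72.2 and 70.4 RPKM in scratched and unscratched knockout-labelled cells, against 72.0 and 66.4 RPKM in scratched and unscratched WT cells, and differed by 0.05 ± 0.06 log2 (adjusted p = 0.579). Cdca8, borealin, had 33.0 and 32.6 RPKM in the scratched and unscratched knockout-labelled libraries, against 35.8 and 32.3 RPKM in the scratched and unscratched WT libraries. After a scratch its ratio was 0.924 (0.885 to 0.965), below 1 beyond counting error.

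Of the 5 spindle checkpoint genes, which hold back anaphase until kinetochores are attached, 1 rose, and the group median was 0.14 log2 without a scratch and 0.10 after one. Bub1b encodes BUBR1, part of the inhibitor of the APC/C, and had 52.1 and 51.8 RPKM in the scratched and unscratched knockout-labelled libraries, against 41.8 and 38.4 RPKM in the scratched and unscratched WT libraries. It rose by 0.38 ± 0.06 log2 (adjusted p = 2.10e-05), with differences of 0.44 log2 without a scratch and 0.32 log2 after one. Its binding partner Bub3 had the smallest difference of the group, with 37.2 and 37.2 RPKM in scratched and unscratched knockout-labelled cells, against 38.5 and 34.7 RPKM in scratched and unscratched WT cells (0.03 ± 0.06 log2, adjusted p = 0.747). The kinase Bub1 differed by 0.15 ± 0.06 log2 (adjusted p = 0.0590) and the upstream kinase Ttk by 0.10 ± 0.05 log2 (adjusted p = 0.186). Mad2l1, the MAD2 protein that binds CDC20, had 38.1 and 38.0 RPKM in scratched and unscratched knockout-labelled cells, against 39.1 and 34.7 RPKM in scratched and unscratched WT cells, and the unscratched WT library was the low one of the 4.

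Of 7 genes of the centromere and kinetochore, the sites where chromosomes meet the spindle, 3 rose: Cenpa, Cenpe and Cenpf. The 4 subunits of the NDC80 complex, which grips microtubule ends, did not pass. The group median was 0.18 log2 without a scratch and 0.02 after one. Cenpa, the histone H3 variant that marks centromeres, had 40.0 and 43.5 RPKM in the scratched and unscratched knockout-labelled libraries, against 31.1 and 33.9 RPKM in the scratched and unscratched WT libraries, and rose by 0.37 ± 0.06 log2 (adjusted p = 2.53e-05). It stood 1.29 (1.24 to 1.35) times as high as in WT in unscratched cells and 1.29 (1.24 to 1.35) times in scratched cells.
Cenpf, a protein of the corona that also binds the nuclear envelope, had 22.6 and 26.9 RPKM in scratched and unscratched knockout-labelled cells, against 18.5 and 17.6 RPKM in scratched and unscratched WT cells, with the unscratched knockout-labelled library highest. Cenpf rose by 0.46 ± 0.07 log2 (adjusted p = 6.51e-06), with a ratio of 1.23 (1.19 to 1.27) after a scratch. Cenpe, the kinesin that carries chromosomes to the spindle equator, had 23.2 and 26.2 RPKM in scratched and unscratched knockout-labelled cells, against 19.8 and 17.8 RPKM in scratched and unscratched WT cells, and rose by 0.40 ± 0.07 log2 (adjusted p = 4.74e-05).
In the NDC80 complex, Ndc80 had 24.3 and 24.9 RPKM in the scratched and unscratched knockout-labelled libraries, against 25.6 and 22.1 RPKM in the scratched and unscratched WT libraries, and the genotypes overlapped. Nuf2, Spc25 and Ndc80 differed by 0.06, 0.04 and 0.05 log2, with adjusted p of 0.425, 0.698 and 0.571. Spc24 alone among the 41 genes lay lower in both knockout-labelled libraries than in both WT libraries, at 33.5 and 33.8 RPKM in scratched and unscratched knockout-labelled cells, against 35.9 and 37.7 RPKM in scratched and unscratched WT cells. Its difference of -0.12 ± 0.05 log2 did not pass (adjusted p = 0.0820).

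Among the 8 genes of the spindle and of chromosome structure 5 rose, and the group median was 0.22 log2 without a scratch and 0.12 after one. Tpx2, which activates Aurora A on spindle microtubules, had 72.1 and 72.3 RPKM in the scratched and unscratched knockout-labelled libraries, against 55.5 and 51.1 RPKM in the scratched and unscratched WT libraries. It was 1.42 (1.37 to 1.47) times WT without a scratch and 1.30 (1.27 to 1.34) times after one, and rose by 0.44 ± 0.06 log2 (adjusted p = 1.74e-06). Ckap2l, a spindle pole protein, had 47.7 and 49.3 RPKM in scratched and unscratched knockout-labelled cells, against 42.9 and 38.9 RPKM in scratched and unscratched WT cells and rose by 0.25 ± 0.06 log2 (adjusted p = 0.00283).
Hmmr, the spindle protein first known as a hyaluronan receptor, had 38.5 and 39.4 RPKM in scratched and unscratched knockout-labelled cells, against 36.1 and 31.3 RPKM in scratched and unscratched WT cells, and rose by 0.22 ± 0.06 log2 (adjusted p = 0.0112). Dlgap5, which stabilises fibres at kinetochores, rose by 0.17 ± 0.06 log2 (adjusted p = 0.0318), and the microtubule bundler Nusap1 by 0.16 ± 0.06 log2 (adjusted p = 0.0455). Dlgap5 had 43.2 and 43.4 RPKM in scratched and unscratched knockout-labelled cells, against 39.7 and 37.6 RPKM in scratched and unscratched WT cells. Nusap1 had 52.2 and 53.2 RPKM in scratched and unscratched knockout-labelled cells, against 48.9 and 45.9 RPKM in scratched and unscratched WT cells, and in both genes the knockout-labelled values were the higher ones. The other three did not pass. Top2a differed by 0.13 ± 0.07 log2 (adjusted p = 0.165). Gtse1, a microtubule-binding regulator of p53, had 17.5 and 16.0 RPKM in scratched and unscratched knockout-labelled cells, against 15.2 and 15.7 RPKM in scratched and unscratched WT cells (adjusted p = 0.155), with the scratched knockout-labelled library the high one. Ckap2, a relative of Ckap2l, had the smallest difference of the group at 0.09 ± 0.06 log2, with 72.6 and 75.7 RPKM in scratched and unscratched knockout-labelled cells, against 71.1 and 68.8 RPKM in scratched and unscratched WT cells.

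Genes of the APC/C pathway and of sister separation held the member with the lowest p, and 4 of these 5 genes rose, with a median of 0.26 log2 without a scratch and 0.20 after one. Ube2c encodes the ubiquitin-conjugating enzyme of the APC/C and had 74.9 and 79.7 RPKM in the scratched and unscratched knockout-labelled libraries, against 54.0 and 56.0 RPKM in the scratched and unscratched WT libraries. It was 1.43 (1.37 to 1.49) times WT without a scratch and 1.39 (1.34 to 1.45) times after one, and rose by 0.50 ± 0.06 log2 (adjusted p = 3.01e-07). Cdc20, the co-activator that works with it, had 132 and 135 RPKM in scratched and unscratched knockout-labelled cells, against 132 and 129.9 RPKM in scratched and unscratched WT cells (0.03 ± 0.06 log2, adjusted p = 0.742).
Both ends of the separase switch rose. Pttg1, securin, which holds separase inactive, had 28.7 and 32.1 RPKM in scratched and unscratched knockout-labelled cells, against 25.1 and 23.5 RPKM in scratched and unscratched WT cells, and rose by 0.32 ± 0.06 log2 (adjusted p = 4.35e-04). Espl1, separase, which cuts the cohesin between sister chromatids, had 17.0 and 17.5 RPKM in scratched and unscratched knockout-labelled cells, against 14.7 and 14.9 RPKM in scratched and unscratched WT cells, and rose by 0.23 ± 0.06 log2 (adjusted p = 0.00361). Cdca3, a target of the APC/C that favours mitotic entry, had 114 and 115 RPKM in scratched and unscratched knockout-labelled cells, against 104 and 96.1 RPKM in scratched and unscratched WT cells, and rose by 0.20 ± 0.06 log2 (adjusted p = 0.0135).

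The 4 cytokinesis genes, which position and close the cleavage furrow, did not pass, and their group median was 0.07 log2 without a scratch and -0.04 after one. The largest difference was that of Prc1, the bundler of the central spindle, at 0.04 ± 0.06 log2 (adjusted p = 0.618), with 110.0 and 114 RPKM in scratched and unscratched knockout-labelled cells, against 113 and 105 RPKM in scratched and unscratched WT cells. Ect2, which activates RhoA at the furrow, differed by 0.04 ± 0.06 log2 (adjusted p = 0.686), and its activator Racgap1 by 0.01 ± 0.06 log2 (adjusted p = 0.894). Racgap1 had 71.7 and 72.9 RPKM in scratched and unscratched knockout-labelled cells, against 73.7 and 70.1 RPKM in scratched and unscratched WT cells, and the genotypes overlapped. Anln, anillin, the ring scaffold, had 83.3 and 87.2 RPKM in the scratched and unscratched knockout-labelled libraries, against 89.0 and 83.4 RPKM in the scratched and unscratched WT libraries. After a scratch Anln was 0.938 (0.917 to 0.960) times WT.

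Where the genes lie on the genome moved with these results. The 6 genes called in both comparisons are Ube2c (chr2:164769898-164778822), Tpx2 (chr2:152847964-152895321), Aurka (chr2:172356190-172370535) and Bub1b (chr2:118598211-118641591) on chromosome 2, Ccnb1 (chr13:100778650-100786570) and Cenpa (chr5:30666777-30674830) (gene spans from GENCODE on GRCm38). Chromosome 2 holds 9 of the 41 genes, and 7 of those 9 rose, against 12 of the 32 elsewhere. The 946 other tested genes of chromosome 2 also lay slightly above WT, with medians of 0.08 log2 without a scratch and 0.06 after one, and 23.6% of them rose and 6.87% fell. On chromosome 4, which holds Cdc20 and Cdca8, the 795 other tested genes had medians of -0.17 and -0.16 log2, and 5.03% of them rose and 41.9% fell. Every other chromosome had a median between -0.09 and 0.07 in both comparisons. Chromosome 14, which holds Dlgap5, was close to chromosome 2. Its 408 other tested genes had medians of 0.07 log2 without a scratch and 0.05 after one, and 23.0% rose and 7.35% fell.
Subtracting from each gene the median of the other tested genes within 10 Mb left a median of 0.17 log2 over the 41 genes without a scratch, with 39 above 0, and of 0.08 after a scratch, with 32 above 0. This left 11 genes at least 25% higher in knockout-labelled cells without a scratch and 1, Cenpa, after a scratch. The share of all tested genes left by the same subtraction was not computed. The members off chromosome 2 had medians of 0.14 log2 without a scratch and 0.04 after one, against 0.35 and 0.31 for those on it, and 2 of the 32, Ccnb1 and Cenpa, were called in both comparisons. On chromosome 4 both members stood above the median of their neighbours within 10 Mb. Cdc20 did so by 0.24 log2 without a scratch and 0.19 after one, and Cdca8 by 0.20 and 0.08. Beyond this subtraction, the part of the chromosome-wide shifts in the result was not tested.

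**Figure D3:**
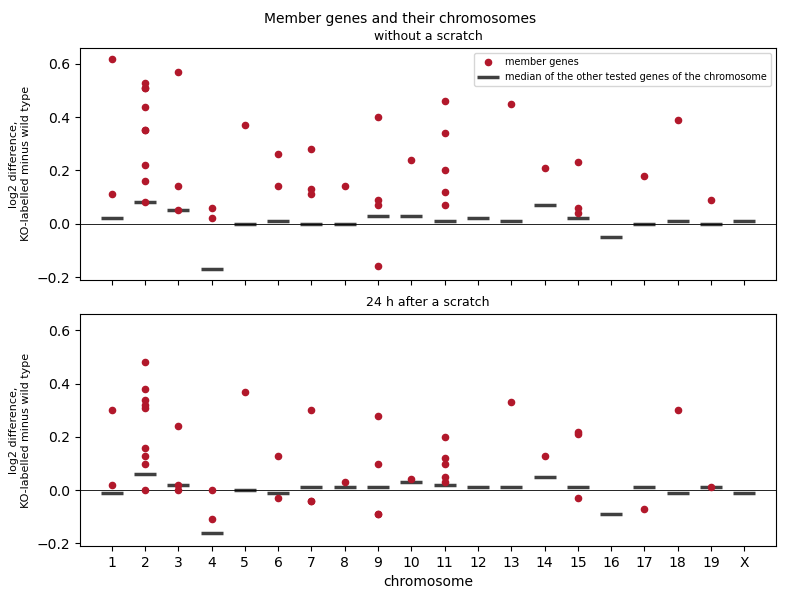
Log2 difference of CPM, knockout-labelled minus WT, by chromosome, without a scratch (top) and 24 hours after a scratch (bottom); points are the 41 genes and bars the median of the other tested genes of each chromosome. The chromosome 4 median lies at -0.17 and -0.16 and that of chromosome 2 at 0.08 and 0.06, and most of the 9 chromosome 2 members lie above their chromosome's median.

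No G2 or mitosis gene was 25% higher or 20% lower 24 hours after a scratch in either genotype, and the difference within a genotype has no test. In knockout-labelled cells the median scratch difference was -0.02 log2, against 0.01 over all tested genes. There 17 genes were above 0 and 24 below, beside 6540 of the 12348 tested genes above 0. In WT cells the median was 0.10 log2, against 0.02 over all tested genes. There 36 of the 41 genes were above 0, beside 6728 of the 12348 tested genes. The summed CPM of the 41 genes after a scratch was 0.983 times the unscratched level (0.978 to 0.987) in knockout-labelled cells and 1.074 times (1.068 to 1.081) in WT cells. No member was called in either genotype, beside 1.47% of tested genes higher and 2.16% lower in knockout-labelled cells, and 2.31% higher and 4.15% lower in WT cells. The counting interval lay above 1 for 7 genes and below 1 for 10 in knockout-labelled cells (18.2% and 13.9% of tested genes), and above 1 for 26 and below 1 for 1 in WT cells (22.3% and 14.9%). These shares are not matched for level, and the members are deeply counted.

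In the fit of all 4 libraries, 0 of the 41 genes rose or fell with the scratch, beside 1.47% of tested genes that rose and 1.44% that fell. The lowest adjusted p of a member was 0.175 in edgeR. At an unadjusted p under 0.05, edgeR had 1 member up (Nuf2) and 0 down, DESeq2 had 0, and limma on log2 RPKM had Nuf2 up and Cenpa down. Nuf2, a subunit of the NDC80 complex, was 1.07 (1.02 to 1.12) times its unscratched level in knockout-labelled cells and 1.14 (1.08 to 1.21) times in WT cells. Cenpa was lower after a scratch in both genotypes, at 0.924 (0.891 to 0.958) times in knockout-labelled cells and 0.922 (0.879 to 0.968) times in WT cells.

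Among the largest WT responses were those of Ndc80 at 1.17 times, Hmmr at 1.16, Aurka at 1.15 and Cdk1 at 1.14 times the unscratched level. In knockout-labelled cells the same genes stood at 0.979 (0.934 to 1.03) for Ndc80, 0.983 (0.947 to 1.02) for Hmmr, 1.01 (0.961 to 1.05) for Aurka and 0.992 (0.965 to 1.02) for Cdk1. The lowest response in knockout-labelled cells was that of Cenpf at 0.845 (0.822 to 0.869) times, with 1.06 in WT cells, followed by Cenpe at 0.890 (0.862 to 0.920) with 1.12 (1.07 to 1.17) in WT cells and Pttg1 at 0.898 (0.842 to 0.958) with 1.07 (0.988 to 1.17) in WT cells.

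**Figure D4:**
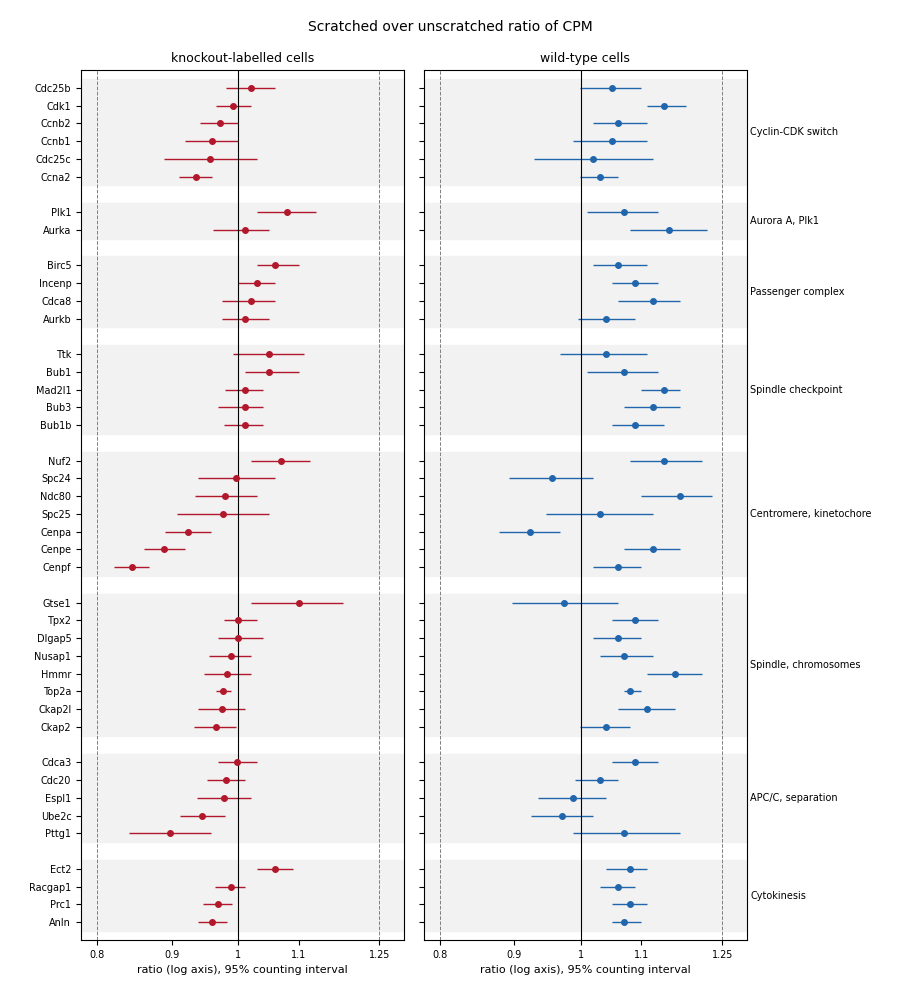
Ratio of CPM, scratched over unscratched (log axis), for the 41 genes in knockout-labelled cells (left) and WT cells (right); bars are 95% counting intervals and dashed lines mark 25% higher and 20% lower. In WT cells 26 intervals lie above 1 and in knockout-labelled cells 7 do, and no gene reaches a dashed line in either panel.

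The difference between the scratch responses, knockout-labelled minus WT on the log2 scale, had a median of -0.11 over the 41 genes, against -0.01 over all tested genes. Its 95% counting interval lay below 0 for 25 genes and above 0 for 1, beside 15.1% and 11.8% of tested genes, shares not matched for level. It rests on 1 library per condition and has no test. Both kinetochore corona genes differed most, Cenpe by -0.33 (-0.41 to -0.25) log2 and Cenpf by -0.32 (-0.39 to -0.26) log2. Pttg1 differed by -0.26 (-0.41 to -0.11), Ndc80 by -0.25 (-0.36 to -0.15), Hmmr by -0.24 (-0.32 to -0.15) and Cdk1 by -0.20 (-0.27 to -0.14) log2. Gtse1 was the gene with the larger response in knockout-labelled cells, by 0.17 (0.02 to 0.33) log2. Across the 41 genes the scratch differences of the genotypes, which share no library, had a Pearson r of 0.12 and a Spearman rho of 0.22, against 0.12 and 0.29 across all tested genes, and had the same sign for 20 of the 41 (48.8%), against 61.3% of tested genes.
A smaller genotype difference after a scratch and a smaller scratch response in knockout-labelled cells are the same 4 values read in 2 ways. In 36 of the 41 genes the unscratched WT library was the lowest of the 4. The same count over all tested genes was not made. The unscratched WT library also held the lowest member share of counts, 0.761%. The scratched WT library lay between it and both knockout-labelled libraries.

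Other genes of the same pathway were read from 10 lists that hold 183 genes, all tested, of which 22 (12.0%) rose and 35 (19.1%) fell with genotype, beside 13.8% and 12.2% of all tested genes. The mitotic kinesins, motors of the spindle and midzone, had 6 of 12 genes that rose and 0 that fell, with medians of 0.23 log2 without a scratch and 0.13 after one. Kif20a, which works in cytokinesis, rose by 0.34 ± 0.06 log2 (adjusted p = 1.75e-04), Kif14 by 0.27 ± 0.05 log2 (adjusted p = 4.59e-04) and Kif18a, which shortens kinetochore fibres, by 0.25 ± 0.08 log2 (adjusted p = 0.0194). Of 16 regulators of mitotic entry 4 rose and 2 fell, with medians of 0.08 log2 without a scratch and 0.04 after one. Bora, the cofactor with which Aurora A activates Plk1, rose by 0.48 ± 0.08 log2 (adjusted p = 6.22e-05) and Cdkn3, a CDK phosphatase, by 0.35 ± 0.09 log2 (adjusted p = 0.00281), and Pkmyt1, a kinase that inhibits CDK1, fell (-0.29 ± 0.06 log2, adjusted p = 4.01e-04). Both genes named as rising lie on chromosome 14, where 23.0% of other tested genes rose. Of 17 APC/C subunits and partners, with medians of 0.06 and 0.01 log2 in unscratched and scratched cells, 3 (17.6%) rose and 0 fell, beside 13.8% and 12.2% of all tested genes: Cdc16 by 0.23 ± 0.06 log2 (adjusted p = 0.00557), Anapc1 by 0.18 ± 0.06 log2 (adjusted p = 0.0223) and Cdc27 by 0.16 ± 0.06 log2 (adjusted p = 0.0370).

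Of 23 genes for the factors that control G2 and mitosis transcription 0 rose and 7 (30.4%) fell, beside 13.8% and 12.2% of all tested genes. Their medians were -0.09 log2 without a scratch and -0.12 after one. Foxm1 had 601 and 563 CPM in the scratched and unscratched knockout-labelled libraries, against 610.4 and 588 CPM in the scratched and unscratched WT libraries (-0.04 ± 0.06 log2, adjusted p = 0.644). Mybl2, B-MYB, differed by 0.00 ± 0.06 log2 (adjusted p = 0.997). E2f2 (-0.45 ± 0.06 log2, adjusted p = 5.70e-06), E2f8, a repressor (-0.25 ± 0.06 log2, adjusted p = 0.00139), and the NF-Y subunit Nfyc (-0.25 ± 0.06 log2, adjusted p = 0.00116) fell. E2f2, Nfyc and Rbbp4, which make up 3 of the 7 that fell, lie on chromosome 4.

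Of 29 further kinetochore genes, with a median of -0.04 log2 in either comparison, 0 rose and 3 (10.3%) fell, beside 13.8% and 12.2% of all tested genes. Those that fell were Mis18a (-0.20 ± 0.05 log2, adjusted p = 0.00424), Cenpm (-0.20 ± 0.07 log2, adjusted p = 0.0223) and Nsl1 (-0.19 ± 0.07 log2, adjusted p = 0.0299). Condensin, which compacts chromosomes, had medians of -0.04 and -0.02 log2 in unscratched and scratched cells. Of its 8 genes 0 rose and 1 (12.5%) fell, Smc2 on chromosome 4 (-0.18 ± 0.06 log2, adjusted p = 0.0224). Of 15 cohesin genes, with medians of 0.02 and -0.06 log2 in unscratched and scratched cells, 6.67% rose and 13.3% fell. Wapl rose by 0.16 ± 0.06 log2 (adjusted p = 0.0367), and Stag1 (-0.26 ± 0.06 log2, adjusted p = 0.00126) and Esco2 (-0.25 ± 0.06 log2, adjusted p = 0.00226) fell. Of 11 other cytokinesis genes, with medians of 0.02 and 0.00 log2 in unscratched and scratched cells, 1 (9.09%) rose, Chmp4b by 0.17 ± 0.06 log2 (adjusted p = 0.0354). The shares called in the kinetochore, condensin, cohesin and other cytokinesis lists lay near or below those of all tested genes.
Of 39 DNA replication genes, which act in S phase, 16 fell and 2 rose, with medians of -0.12 log2 without a scratch and -0.15 after one. Chaf1b, which loads histones on new DNA, fell (-0.33 ± 0.06 log2, adjusted p = 9.40e-05) and Ccne2, a cyclin E on chromosome 4, did too (-0.28 ± 0.06 log2, adjusted p = 8.06e-04), and the other cyclin E gene, Ccne1, rose by 0.44 ± 0.11 log2 (adjusted p = 0.00345). Of the 16 that fell, 1 lies on chromosome 4 and 4 (Mcm4, Cdc45, Rfc4 and Chaf1b) lie on chromosome 16, where 18.8% of other tested genes fell.

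**Figure D5:**
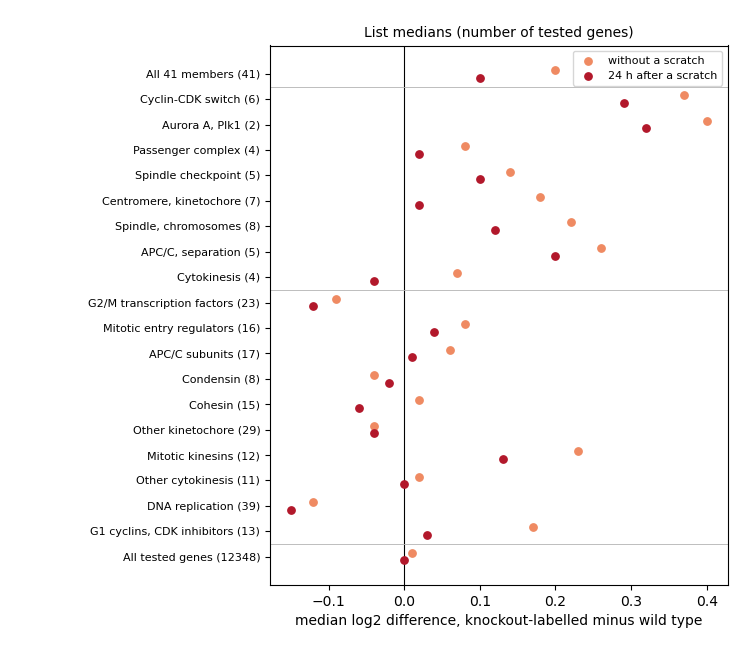
Median log2 difference of CPM, knockout-labelled minus WT, for the 41 genes, for their role groups and for 10 other lists, without a scratch and 24 hours after a scratch; the number of tested genes follows each name. Without a scratch, spindle pole kinases, the kinase switch, APC/C and separation genes, mitotic kinesins and spindle genes lie furthest right, at up to 0.40. Replication and G2/M transcription genes lie to the left of 0.

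Some counts may hold reads of a neighbouring gene. The libraries were stranded, per the labels, but whether counting used the strand is not given in the sources used here, and 11 of the 41 genes share exon bases with another annotated gene. Ube2c shares 22.8% of its exon bases with Tnnc2, which had 0 counts in all 4 libraries. Ccna2 shares 12.5% with Exosc9, Cdc25c 12.7% with Gm3550 and Prc1 11.1% with Rccd1; these partners had 3445, 47 and 1333 counts in all, against 40702, 5091 and 53466 for the members. Ccnb1 and Ccnb2 have processed copies, Ccnb1-ps and Ccnb2-ps, with at most 26 counts in a library.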

How the data were processed

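Per the labels, mRNA libraries were made from total RNA with an Illumina stranded kit. The submitters' processing notes name HTSeq 0.11.3, STAR 2.7.9a, Trimmomatic 0.39 and edgeR 3.32.1, with mm10 as the build, and give no roles or settings. The authors deposited a table of whole-number counts per Ensembl gene and a table of RPKM, from which 161 of 14844 rows without values were left out. Column names give the genotype and a letter for the treatment; S is scratched and N was read as unscratched, since the labels hold no other condition. Gene IDs were matched to GENCODE names for 45143 of 46078 genes.

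Counts were scaled by TMM (factors 0.991 to 1.007) and tested with edgeR 4.0.16 in R 4.3.3 (glmQLFit and glmQLFTest, biological coefficient of variation 5.49%), with DESeq2 1.42.0 and limma 3.58.1 (log2 of RPKM plus 0.1) as alternatives. Medians use log2 CPM with a prior count of 2. Intervals of a ratio are exact Clopper-Pearson intervals on the split of the counts of 2 libraries, and those of a difference of responses use the delta method. Nothing says that the libraries came from repeated cultures, so p-values compare these 4 libraries only. In the edgeR fit the spread of a gene was mostly pooled over all tested genes, with 25.4 prior degrees of freedom against 1 residual. The SE and p of a gene therefore reflect little of how far its own 2 genotype differences lie apart. The members, the lists and the marker genes were chosen with earlier results of these data known. All members are named. In other lists, up to 3 genes with the largest genotype difference among those that passed are named. Foxm1, Mybl2, Cdc25a, Mki67, the marker genes with ratios and the genes named for lying on chromosome 4 or 16 were added after their values were seen. Promoters were shown for the first 6 of a set order of genes that hold TTTGAA, leaving out those where it lies more than 30 bases after the start, a limit added later that left out Plk1 and Aurka.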

Additional observations from a re-analysis of the deposited data

Results flagged for a closer look

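In 5 of the 41 genes the scratch ratio, scratched over unscratched CPM, lay below 1 beyond counting error in knockout-labelled cells and above 1 beyond counting error in WT cells, against 188 of 12348 tested genes (1.52%). The opposite pattern was found in 0 of the 41 genes and in 188 tested genes (1.52%). Counting intervals narrow with depth, and these shares are not matched for level. Cenpe stood at 0.890 times its unscratched level in knockout-labelled cells and 1.12 times in WT cells. Cenpf stood at 0.845 times in knockout-labelled cells and 1.06 times in WT cells. Top2a stood at 0.976 times in knockout-labelled cells and 1.08 times in WT cells, Anln at 0.960 times in knockout-labelled cells and 1.07 times in WT cells, and Prc1 at 0.968 times in knockout-labelled cells and 1.08 times in WT cells. These opposite directions rest on 1 library per condition, and the difference was not tested.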

How the results depend on the processing

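The 4 pairwise medians kept their sign under other scalings, filters, deposited RPKM, a gene length correction and subtraction of the chromosome or local median: 0.17 to 0.22 log2 for genotype without a scratch, 0.08 to 0.11 for genotype after a scratch, 0.07 to 0.10 for the scratch in WT cells and -0.03 to -0.01 for the scratch in knockout-labelled cells. Counts moved with the fold asked for. At 1.1-fold, 26 genes were higher and 1 lower in knockout-labelled cells without a scratch (21.4% and 18.9% of tested genes), 16 were higher after a scratch (17.9%), 10 were higher after a scratch in WT cells (13.8%) and 3 were lower after a scratch in knockout-labelled cells (7.67%). At 1.5-fold, 1 gene was higher without a scratch (3.50%) and 0 after a scratch (3.46%). The 6 genes called higher in knockout-labelled cells after a scratch became 4 with total counts as library size and 5 with DESeq2 size factors. With deposited RPKM, where no interval was asked for, they became 5 at a pseudocount of 0.1 and 4 at 1. Of the 6 genes, 2 were left when the median of the chromosome was subtracted and 1 when the median within 10 Mb was. Both of these subtractions were chosen after seeing the data. Shares of all tested genes were not computed for these settings. The 19 genes that rose with genotype became 10 with DESeq2 (4.54% of tested genes), and outside chromosome 2 they were 12 of 32. Other settings of the genotype test gave 13 to 19 genes. Limma on log2 RPKM gave 13, beside 5.24% of all genes with RPKM values that rose. Without the scratch term edgeR gave 14, beside 5.50% of tested genes. With total counts edgeR gave 17 (12.3%), and with DESeq2 size factors 18 (13.1%). The lower counts thus came with lower shares of all genes. A filter of at least 10 counts over the libraries gave 19, and its share is not given here. Leaving out 1 library at a time moved the genotype median between 0.10 and 0.20 log2 and the scratch median between -0.02 and 0.10 log2, with no residual degrees of freedom and so no test. No paired analysis was possible because each condition has 1 library and the labels carry no replicate numbers. Depth limits little here, since each member had at least 894 counts in each library. The lack of replicate cultures limits every comparison.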

Other observations

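Of 13 genes that govern G1 or mark cycling cells, 5 (38.5%) rose and 4 (30.8%) fell with genotype in the fit of all 4 libraries, beside 13.8% and 12.2% of all tested genes. Their medians were 0.17 log2 without a scratch and 0.03 after one. Cdk6, a kinase that drives passage through G1, rose by 1.05 ± 0.10 log2 (edgeR adjusted p = 3.46e-09), and its partner Ccnd2, cyclin D2, rose by 0.73 ± 0.06 log2 (adjusted p = 1.14e-09). Cdkn1a, the inhibitor p21, rose by 0.66 ± 0.12 log2 (adjusted p = 2.37e-04). Mki67, which marks cycling cells, rose by 0.19 ± 0.07 log2 (adjusted p = 0.0403). Mki67 was 1.28 (1.26 to 1.30) times WT without a scratch and 1.02 (1.01 to 1.04) times after one. Of the 4 that fell, 3 lie on chromosome 4, where 41.9% of other tested genes fell.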
